A study of Mus musculus with 24 samples.

Results

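The response of the transcriptome to torin1 was compared between WT MEFs (mouse embryonic fibroblasts) and *tfeb tfe3* DKO MEFs, so that every gene has a response in WT, a response in DKO and a difference between both, the genotype by torin1 interaction. The difference is (DKO torin1 minus DKO DMSO) minus (WT torin1 minus WT DMSO) on the log2 scale and rests on 16 of the 24 libraries of the series, 4 per group. WT cells carry the label wild type and DKO cells the label *Tfeb*/*Tfe3* KO, and both received either 0.1% DMSO as vehicle or 100 nM torin1, an inhibitor of the catalytic site of MTOR. The doses come from the supplement of the study, and the time of treatment before sequencing is not given in the sources used here. The remaining 8 libraries, WT and DKO with MK-8722, an activator of AMPK, lie outside the contrast and are set beside it. Each genotype is represented by 1 line, so a difference between the lines other than the loss of TFEB and TFE3 cannot be told apart from the genotype. The 4 libraries of a group came from cultures at different passages, 7 to 11 over all libraries. Each passage of a genotype occurred once per treatment, but passage was not fitted. The p-values thus measure the spread between these cultures, with differences between passages included.

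TFEB and TFE3 are transcription factors of the MiT/TFE family. When MTORC1 is active on the lysosome, it phosphorylates them and they are held in the cytosol, and when MTORC1 is inhibited they enter the nucleus and bind short palindromic motifs (the E-box and its extended CLEAR form) in promoters of lysosomal, autophagy and nutrient sensing genes. Torin1 also acts on other outputs of MTOR, among them the ATF4, SREBP and MYC programmes, which run through other transcription factors.

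Of 55487 genes in the table of estimated counts, 15401 had enough counts to be tested, and total counts per library ranged from 24668921 to 33332562. Genes are called at an adjusted p under 0.05 (edgeR's quasi-likelihood test, Benjamini-Hochberg adjustment over all genes tested) and a fold change of at least 1.2, and values per library are CPM, counts relative to the library total scaled with TMM. *Tfeb* was between 14 and 25 CPM in the 8 WT libraries with DMSO or torin1 and between 1.34 and 2.65 CPM in those of DKO. *Tfe3* mRNA was not lower in DKO, with 77.5 to 122 CPM in WT and 89.5 to 126 CPM in DKO. The WT libraries of passage 11 (DMSO replicate 2 and torin1 replicate 1) stood apart from the other WT libraries, with a mean of 6.23 and 6.67 log2 CPM over 40 interferon-stimulated genes against 2.27 to 4.27 in the other WT libraries and 6.21 to 7.07 in DKO. Of 12 fibroblast markers, 7 were over 1 CPM in every library, among them *Col1a1*, *Pdgfra* and *Vim*, and 2 were under 1 CPM in all. *Fn1*, also of the 7, was called in the interaction. The summed level of the 12 was 6730 to 9760 CPM in WT and 5520 to 6490 CPM in DKO with DMSO. With torin1 it was 7710 to 10100 CPM in WT and 7270 to 8120 CPM in DKO. The epithelial marker *Krt8* and the cartilage marker *Sox9* were over 1 CPM in every library, and *Sox9* was called. Of 8 macrophage markers, *Adgre1*, *C1qa* and *C1qb* were at 0 and *Cd14* alone was over 1 CPM in every library. The summed level of the 8 was 9.91 to 11 CPM in WT with DMSO, 7.53 to 12.2 CPM in WT with torin1, 5.8 to 7.55 CPM in DKO with DMSO and 7.84 to 9.75 CPM in DKO with torin1. *Cd14* itself was rise gained, with an interaction of 0.49, and its part in other results was not tested. In these bulk libraries, fewer cells of a type and less RNA per cell cannot be told apart.

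The response to torin1 was smaller in DKO for 975 genes, which is 6.33% of the genes tested, and larger for 721 genes, 4.68%. Together 1696 genes, 11.0%, were called. With library size as the only scaling the split was 1306 smaller and 472 larger. Without the WT libraries of passage 11 it was 749 smaller and 1051 larger, and without WT torin1 replicate 3 alone 848 and 1099. Torin1 itself raised 26.6% and lowered 20.5% of the genes tested in WT, and raised 23% and lowered 20.2% in DKO. Smaller and larger refer to the sign of the interaction, so a gene that torin1 lowers further in DKO has a smaller response. The called genes were therefore sorted by what torin1 did in each genotype. In 571 genes the response was smaller and torin1 raised the gene in WT (rise lost), and in 323 it was smaller and torin1 lowered the gene in DKO but did not raise it in WT (fall deepened). In 236 genes the response was larger and torin1 lowered the gene in WT (fall lost), and in 398 it was larger and torin1 raised the gene in DKO but did not lower it in WT (rise gained). The last 81 smaller and 87 larger responses had no called response of either kind and are in no pattern. At the limits of the calls, *Pstpip1* was just inside with an adjusted p of 0.0495 and *Cdkn2c* just outside with 0.0501 from edgeR, and *Clns1a* and *Incenp* lay on either side of the fold change with interactions of 0.26 each.

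The patterns differed in how far a response went. Among the rise lost genes, 387 had no called response in DKO, 142 still rose and 42 fell, with a median log2 fold change of 0.69 in WT and 0.07 in DKO. Of the fall deepened genes, 238 had no called response in WT and 85 also fell there. The medians of this pattern were -0.09 in WT and -0.55 in DKO. In WT, some of its uncalled genes missed only the fold change needed for a call, such as *Lamtor1* (0.25) and *Atp6v0e* (-0.25). For the fall lost genes the medians were -0.52 in WT and -0.07 in DKO, and 141 had no called response in DKO, 69 still fell and 26 rose. The rise gained genes had medians of 0.19 and 0.69, with 249 not called in WT and 149 that also rose there. The interaction exceeded 2-fold for 126 rise lost genes, and for 20 fall deepened, 14 fall lost and 41 rise gained genes. These medians and splits follow from how the patterns are defined and carry no test of their own. The number of fall lost genes was 385 without the WT libraries of passage 11 and 441 without WT torin1 replicate 3. Over all genes tested the median interaction was -0.01.

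**Figure D1:**
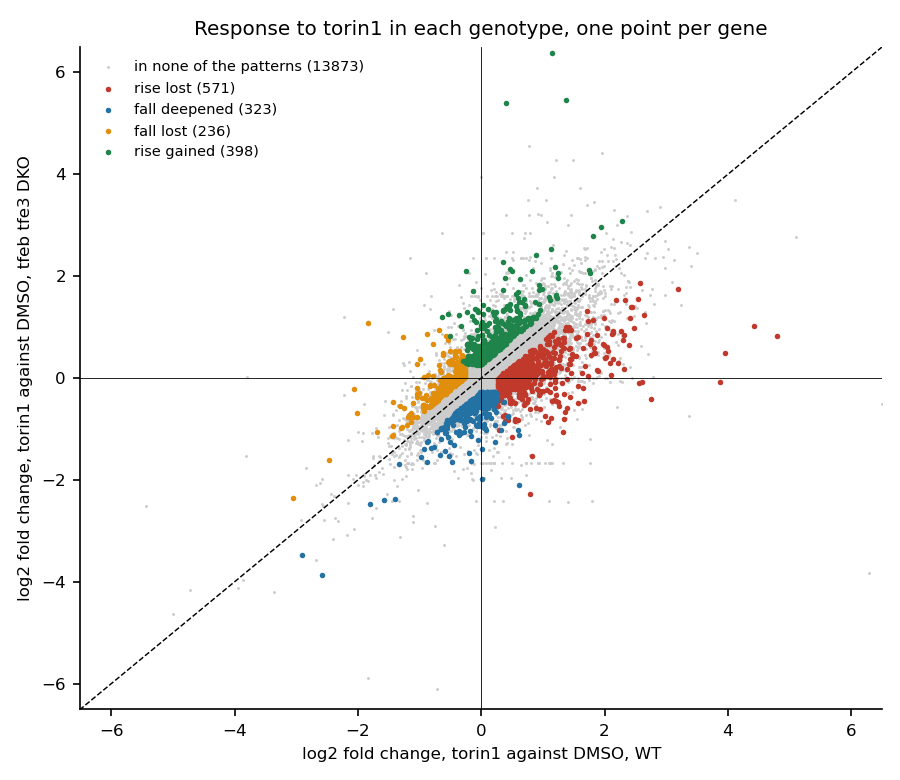
Log2 fold change of torin1 against DMSO in WT (horizontal axis) and in *tfeb tfe3* DKO (vertical axis), 1 point per gene, coloured by pattern, with the dashed line where both responses are equal. Points of rise lost (571) lie to the right and below the line, and those of rise gained (398) above it, while 3 genes outside the axes are not drawn.

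Levels per length, as TPM summed over transcripts, also varied between the patterns. With DMSO, the median gene of the fall lost pattern was at 35.5 TPM in WT and 39.3 TPM in DKO, against 14.2 and 14.3 TPM over all genes tested. Rise lost genes had medians of 9.30 TPM in WT and 10.7 TPM in DKO with DMSO, and 16.3 and 12.7 TPM with torin1. Rise gained genes went from a median of 18.6 to 23.1 TPM in WT and from 15.7 to 27.4 TPM in DKO. Genes of every pattern were mostly protein-coding, at 94.6% to 96.9% against 83.5% of all genes tested.

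Promoters of the members were searched for the letters that MiT/TFE proteins are known to bind, because sequence was not used to sort the genes. The windows span 250 bases before to 50 after the start in RefSeq on GRCm38.p6, and 447 of the 571 rise lost, 261 of the 323 fall deepened, 187 of the 236 fall lost and 307 of the 398 rise gained genes had one. The E-box letters CACGTG stood in 31.5% of rise lost, 20.7% of fall deepened, 10.7% of fall lost and 9.77% of rise gained genes, and in 11.7% of all genes tested with a window, all letters being searched on both strands. For the longer TCACGTGA, which contains the E-box letters, the shares were 10.1%, 7.28%, 1.07% and 0.326%, against 2.17% of all genes tested. The ATF4-type letters TGATGNAA were in 2.14% to 4.23% of the genes of each pattern and in 2.66% of all genes tested. Over all 32851 windows of the table, whichever the gene, CACGTG was in 7.15%. The share of these letters is a description. A match is not a bound site and does not tell which protein would bind it. The following stretches show the E-box letters, in capitals, upstream of named genes of 3 patterns, on the strand of the gene and in GRCm38.p6 coordinates. They are examples from the windows of named genes, and each lies before the annotated start. The windows of the rise gained genes *Creb5* and *Ptgs2* also held these letters. Those of the rise lost genes *Trnp1*, *Ctns*, *Hhipl1*, *Flcn*, *Neu1*, *Tpp1* and *Gpnmb*, among others, did not.
*Dpp7* (rise lost, chr2:25356373-25356432, minus strand): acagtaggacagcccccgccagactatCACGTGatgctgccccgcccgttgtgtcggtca
*Washc2* (rise lost, chr6:116207985-116208032, plus strand): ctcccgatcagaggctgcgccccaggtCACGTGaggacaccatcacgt
*Fnip1* (rise lost, chr11:54438077-54438136, plus strand): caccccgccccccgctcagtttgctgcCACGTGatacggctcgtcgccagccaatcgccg
*Snx8* (fall deepened, chr5:140389376-140389435, minus strand): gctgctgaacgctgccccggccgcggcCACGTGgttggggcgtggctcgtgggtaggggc
*Bax* (fall deepened, chr7:45466899-45466934, minus strand): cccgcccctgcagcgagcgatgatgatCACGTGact
*Klf4* (fall lost, chr4:55532625-55532684, minus strand): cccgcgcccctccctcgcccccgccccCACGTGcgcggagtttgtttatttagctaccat
In *Dpp7*, *Washc2* and *Bax* the capitals lie inside TCACGTGA, and in *Fnip1*, *Snx8* and *Klf4* they do not.

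The largest called interactions of genes over 1 log2 CPM on average were those of *Gpnmb* (-3.98), a lysosomal membrane glycoprotein, and *Plin4* (-3.40), a lipid droplet coat protein, and the genes that follow are the largest among those averaging 2 log2 CPM or more. *Uap1l1* (chromosome 2 of GRCm38, 25359889 to 25365682) encodes a paralog of the enzyme that makes UDP-N-acetylglucosamine. It was at 54.4, 48.0, 59.4 and 50.6 CPM in the WT libraries with DMSO and at 137, 169, 173 and 190 CPM with torin1. In DKO it was at 108, 110, 118 and 117 CPM with DMSO and at 108, 91.3, 99.2 and 98.3 CPM with torin1. All torin1 libraries lay above all DMSO libraries in WT, while those of DKO overlapped, and DKO with DMSO was already above WT with DMSO. Matched by passage, each DKO torin1 library lay below its DMSO library, but the log2 fold change of -0.19 in DKO was not called. The interaction was -1.85 on the log2 scale (standard error 0.12, adjusted p = 2.68e-10 from edgeR).

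*Dpp7* (chromosome 2, 25352276 to 25356359), a dipeptidyl peptidase of the lysosome whose promoter is shown above, was at 18.7, 21.6, 19.1 and 20.6 CPM in WT with DMSO and at 75.5, 89.2, 90.0 and 96.2 CPM with torin1. In DKO the DMSO libraries were at 22.1, 26.6, 22.6 and 25.1 CPM and the torin1 libraries at 34.5, 28.3, 29.7 and 32.6 CPM. Torin1 thus raised *Dpp7* in both genotypes without overlap, by a log2 fold change of 2.13 in WT and 0.38 in DKO, and the interaction was -1.76 (standard error 0.12, adjusted p = 9.86e-10 from edgeR). *Trnp1* (chromosome 4, 133491100 to 133498550) encodes a nuclear protein known from neural progenitors. It was at 3.5, 2.62, 3.43 and 2.73 CPM in WT with DMSO and rose to 5.35, 8.07, 7.49 and 8.20 CPM. In DKO it fell from 8.22, 7.98, 8.64 and 8.74 CPM to 6.68, 5.29, 6.5 and 5.86 CPM. The torin1 libraries lay on opposite sides of their DMSO libraries in the genotypes, and the interaction was -1.71 (standard error 0.20, adjusted p = 1.69e-06 from edgeR).

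*Ctns*, *Hhipl1* and *Flcn* completed the 6 rise lost genes chosen by the size of their interaction. *Ctns*, which encodes the cystine exporter of the lysosome, went from 7.99 ± 0.22 to 26.7 ± 1.52 CPM in WT and from 12.8 ± 0.95 to 13.2 ± 0.66 CPM in DKO (SD, n = 4). Its interaction was -1.70 (standard error 0.08). *Hhipl1*, a secreted relative of the hedgehog-interacting protein, rose from 8.61 ± 1.37 to 12.1 ± 1 CPM in WT and fell from 3.05 ± 0.69 to 1.37 ± 0.27 CPM in DKO. *Flcn*, the folliculin gene, also rose in WT and fell in DKO, with log2 fold changes of 0.96 and -0.60.

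**Figure D2:**
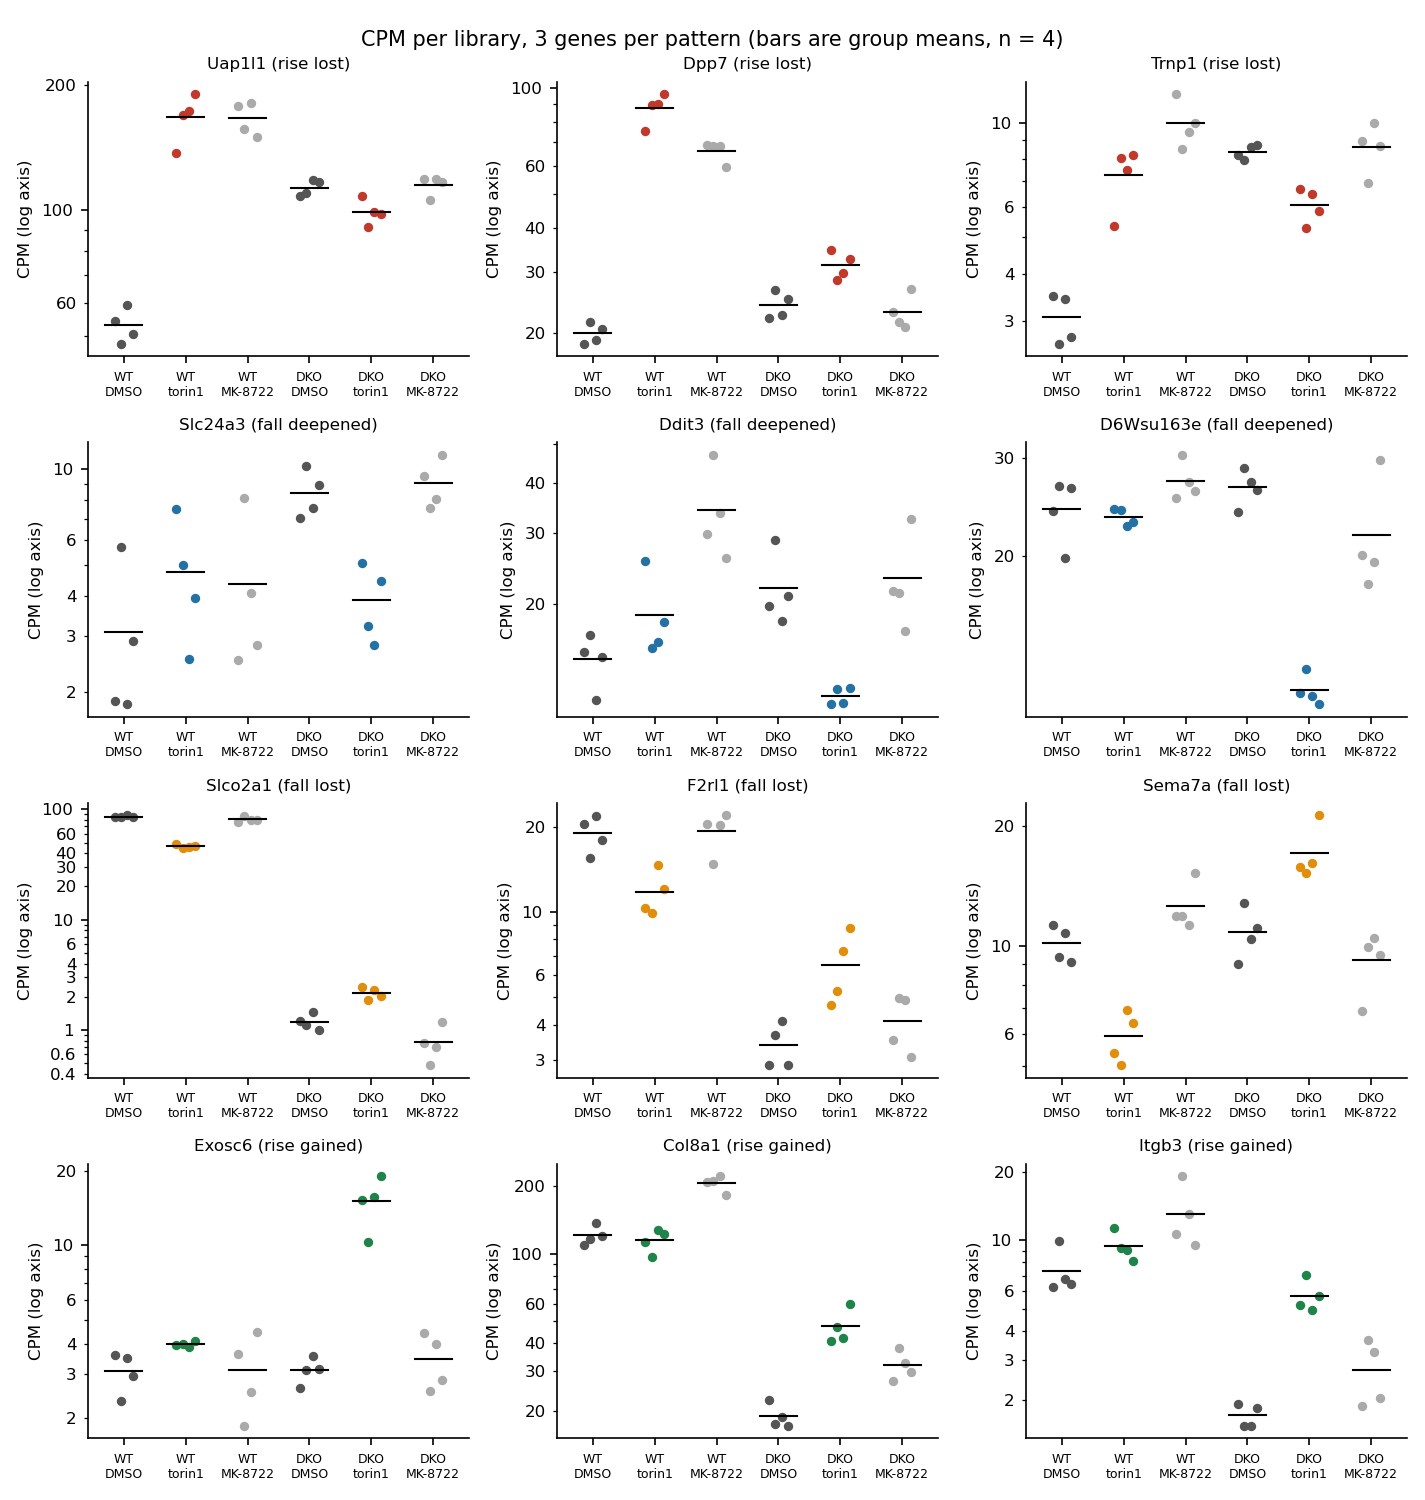
CPM (log axis) of 3 genes of each pattern in every library, with points for libraries and bars for group means (n = 4). In the top row the torin1 libraries of WT (137 to 190 CPM for *Uap1l1*) stand above those with DMSO (48.0 to 59.4 CPM), and in the bottom row the torin1 libraries of DKO stand above their DMSO libraries.

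The V-ATPase, the proton pump that acidifies the lysosome, had the largest share of smaller responses among the gene lists. Of 18 genes tested, 15 had a smaller response in DKO and none a larger one, against 6.33% and 4.68% of all genes tested. The median interaction of the list was -0.53, from median responses of 0.24 in WT and -0.24 in DKO. In WT 9 of the 18 rose and 1 fell with torin1, and in DKO 1 rose and 9 fell. *Atp6v0b*, a proteolipid of the membrane ring, rose from 44.2 ± 0.77 to 76.7 ± 9.26 CPM in WT and fell from 52.7 ± 2.57 to 34.5 ± 1.36 CPM in DKO (SD, n = 4). *Atp6ap2* (the prorenin receptor, an accessory subunit) rose in WT by a log2 fold change of 1.12 and was not called in DKO, where its fold change was -0.12. *Atp6v0d1*, a subunit that links the stalk and the membrane ring of the pump, had 0.90 in WT and -0.21 in DKO, the latter below a fold change of 1.2. Counted by pattern, 8 V-ATPase genes were rise lost and 6 fall deepened, and *Atp6ap1* had a smaller response without a pattern. The fall deepened members, named after their values were seen, were *Atp6v1a*, *Atp6v1e1*, *Atp6v1h*, *Atp6v0a1*, *Atp6v0c* and *Atp6v0e*. They had log2 fold changes from -0.32 to -0.77 in DKO and were not called in WT. Their WT values had both signs and were below a fold change of 1.2. They were 0.21 for *Atp6v1a*, 0.06 for *Atp6v1e1*, 0.20 for *Atp6v1h* and 0.21 for *Atp6v0a1*. For *Atp6v0c* and *Atp6v0e* they were -0.23 and -0.25. *Tcirg1*, *Atp6v0a2* and *Atp6v0e2* had interactions of -0.20, -0.07 and -0.02 and were not called. The count of 15 was the same with every one of the 16 libraries left out in turn and without the WT libraries of passage 11.

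**Figure D3:**
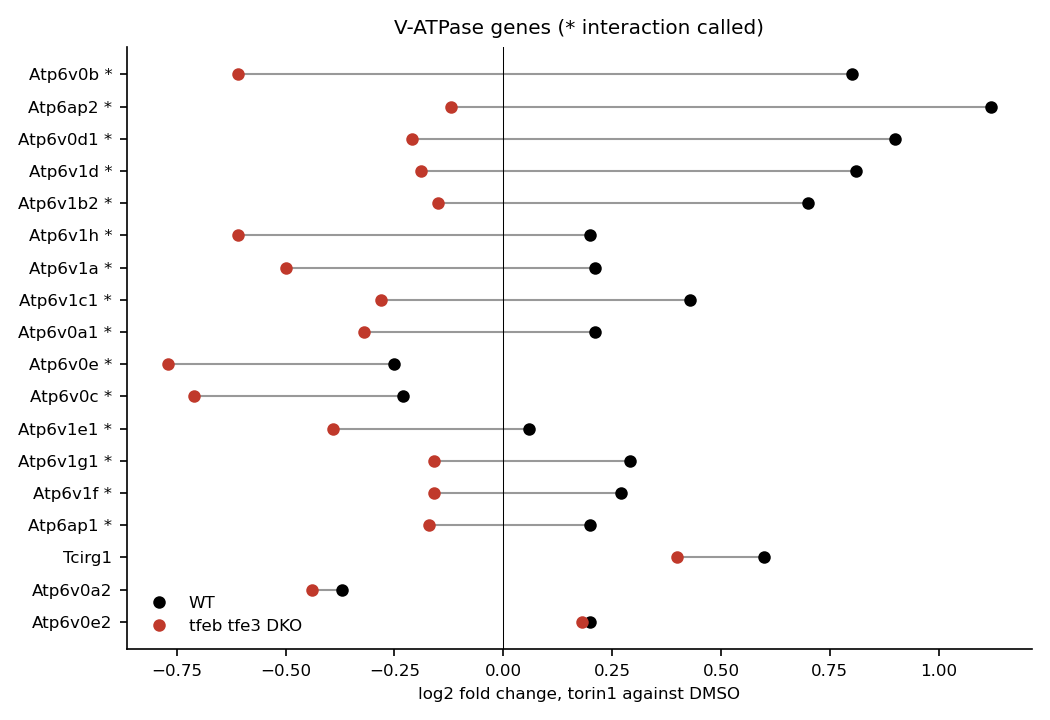
Log2 fold change of torin1 against DMSO for the 18 V-ATPase genes tested, in WT (black) and *tfeb tfe3* DKO (red), ordered by interaction, with an asterisk for a called interaction. All 15 called genes have the DKO point to the left of the WT point.

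Lysosomal hydrolases and their activators had a smaller response in 31 of 49 genes (63.3%) and a larger one in none. Over all genes tested the shares were 6.33% and 4.68%. Median responses of the list were 0.52 in WT and 0.06 in DKO. Of the 31 genes, 25 were rise lost and 3 fall deepened. *Neu1*, the lysosomal sialidase, rose from 24.4 ± 1.6 to 35.7 ± 3.51 CPM in WT and fell from 25.2 ± 0.86 to 14.1 ± 0.70 CPM in DKO (SD, n = 4), an interaction of -1.40 (standard error 0.09). *Tpp1*, a tripeptidyl peptidase, rose with a log2 fold change of 1.46 in WT and had 0.11 in DKO, which was not called. Membrane and transport proteins of the lysosome had a smaller response in 18 of 34 genes (52.9%) and a larger one in 1 (2.94%). *Ostm1*, a subunit of the chloride-proton exchanger of the lysosome, rose slightly in WT (0.29) and fell in DKO (-1.02). The larger response was that of *Litaf*, an endosomal membrane protein, with 0.19 in WT and 0.52 in DKO, and its call was lost without WT torin1 replicate 2 (0.29, adjusted p = 0.0552 from edgeR) and without DKO DMSO replicate 4 (0.30, adjusted p = 0.0516 from edgeR).

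Endosomal transport and tethering genes had a smaller response in 22 of 48 (45.8%) and a larger one in none. Of the 22 genes, 15 were rise lost and 6 fall deepened. *Washc5* and *Washc2*, subunits of the actin-nucleating WASH complex, rose in WT by log2 fold changes of 1.06 and 1.44. In DKO *Washc5* was not called (0.04) and *Washc2* still rose (0.59). *Tgfbrap1*, a subunit of the CORVET tether, was not called in WT (0.12) and fell in DKO (-0.70). Autophagy genes were less uniform, with 11 of 50 smaller (22%) and 4 larger (8%), against 6.33% and 4.68% of all genes tested. Their median interaction was -0.03. *Sqstm1* (the receptor p62) rose in WT from 296 ± 27.4 to 588 ± 20.9 CPM, and was at 583 ± 104 and 641 ± 32.2 CPM in DKO with DMSO and torin1 (SD, n = 4). *Gabarap*, an ATG8 protein, rose in WT (0.62) but not in DKO (-0.16, below the fold threshold). *Uvrag*, a subunit of a class III PI 3-kinase complex, fell in DKO (-0.64) without a called change in WT (0.05). Among the larger responses, *Wipi1*, which binds phosphoinositides on forming autophagosomes, rose more in DKO (1.14) than in WT (0.77). *Epg5*, a tether for autophagosome fusion, rose in DKO (0.60) and was below the fold threshold in WT (0.19). *Calcoco1* had responses of 1.76 in WT and 2.06 in DKO, an interaction of 0.30 that fell to 0.26, under the fold threshold, without DKO DMSO replicate 4.

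Genes of MTORC1 and nutrient sensing were called on both sides, 12 smaller (26.1%) and 5 larger (10.9%) of 46. Over all genes tested the shares were 6.33% and 4.68%. The smaller responses split into 6 rise lost genes and 6 fall deepened genes. *Lamtor3*, a subunit of the Ragulator complex that anchors MTORC1 at the lysosome, went from 37.3 ± 1.16 to 33.1 ± 1.62 CPM in WT, below the fold threshold, and from 39.9 ± 2.28 to 18 ± 0.48 CPM in DKO (SD, n = 4). With *Lamtor1* and *Lamtor4*, 3 Ragulator genes were fall deepened. In WT *Lamtor1* had a log2 fold change of 0.25 and *Lamtor4* of -0.21, both below the fold threshold. *Rragb*, a RAG GTPase, rose in WT from 1.34 ± 0.10 to 3.52 ± 0.42 CPM and was at 12.9 ± 1.59 and 14.6 ± 0.73 CPM in DKO. The larger responses included *Mtor* itself, with 72.3 ± 1.16 and 76.2 ± 3.08 CPM in WT and a rise from 60.5 ± 1.9 to 85.5 ± 2.25 CPM in DKO. *Nprl3*, a subunit of GATOR1, rose in DKO (0.52) and was not called in WT (0.09). *Castor1*, an arginine sensor, rose in both, with an interaction of 0.41 that was not called in 5 of the 16 fits with a library left out.

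**Figure D4:**
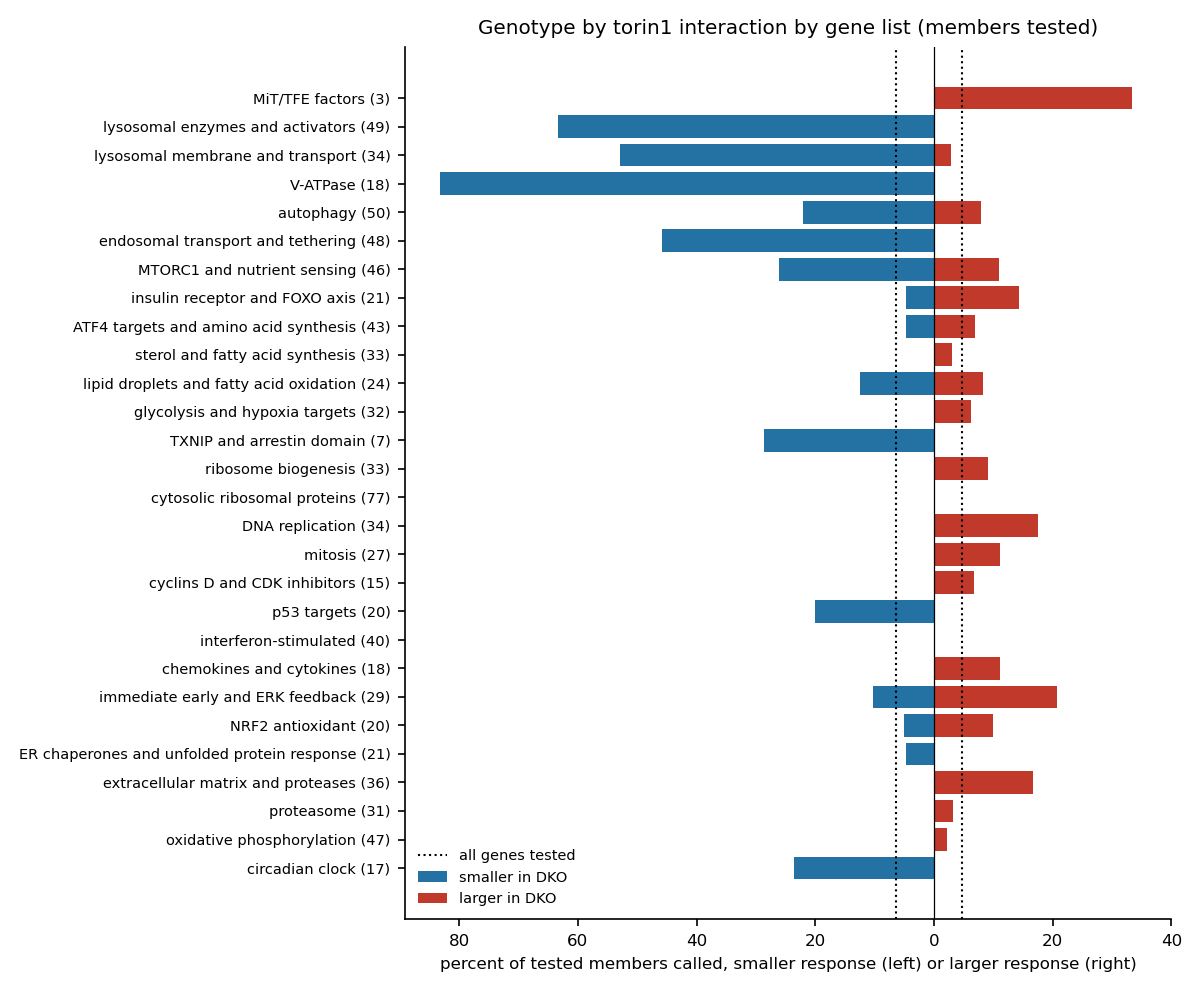
Percent of tested members of each list with a smaller response to torin1 in DKO (left, blue) or a larger one (right, red), with the number tested in brackets and dotted lines at 6.33% and 4.68% of all genes tested. V-ATPase, lysosomal and endosomal lists extend farthest to the left.

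*Slc24a3* (chromosome 2, 145167754 to 145642166), a sodium, calcium and potassium exchanger, was at 1.88, 5.69, 1.83 and 2.90 CPM in WT with DMSO and at 7.48, 5.02, 2.54 and 3.94 CPM with torin1. In DKO it was at 7.02, 10.2, 7.56 and 8.94 CPM with DMSO and 5.08, 3.23, 2.80 and 4.47 CPM with torin1. The libraries overlapped in WT and did not in DKO, and the highest WT values of each treatment were those of passage 11. Within every passage, the WT torin1 library lay above the WT DMSO library, but the log2 fold change of 0.61 in WT was not called. The interaction of -1.72 (standard error 0.52, adjusted p = 0.0255 from edgeR) was not called without WT torin1 replicate 1 (-1.37, adjusted p = 0.0698), WT DMSO replicate 1 (-1.53, adjusted p = 0.0563), WT DMSO replicate 3 (-1.54, adjusted p = 0.0578) or DKO torin1 replicate 3 (-1.58, adjusted p = 0.0577), all from edgeR.

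*Ddit3* (chromosome 10, 127290774 to 127296288), the stress transcription factor CHOP, was at 15.2, 16.8, 11.6 and 14.8 CPM in WT with DMSO and at 25.6, 15.6, 16.1 and 18.1 CPM with torin1. In DKO it fell from 19.8, 28.9, 18.2 and 20.9 CPM to 11.3, 12.3, 11.4 and 12.4 CPM. The DKO groups did not overlap and the WT groups did, and the interaction was -1.25 (standard error 0.28, adjusted p = 0.00407 from edgeR). Matched by passage, each WT torin1 library lay above its DMSO library, but the log2 fold change of 0.36 in WT was not called. The annotation places *Mars* on the other strand and a second *Ddit3* model over this locus, so its reads are less certain. *D6Wsu163e* (chromosome 6, 126939962 to 126975967) was at 24.1, 26.7, 19.8 and 26.5 CPM in WT with DMSO and 24.3, 24.2, 22.6 and 23 CPM with torin1. In DKO it fell from 24, 28.8, 27.1 and 26.3 CPM to 11.3, 12.5, 11.2 and 10.8 CPM. Only the DKO torin1 libraries stood apart, below all other 12, and the interaction was -1.16 (standard error 0.17, adjusted p = 3.38e-05 from edgeR).

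*Rab20*, a GTPase of endosomes and phagosomes, and *Snx8*, a sorting nexin, completed the fall deepened genes chosen by size, with log2 fold changes in DKO of -0.91 and -0.78 and of 0.05 and 0.16 in WT, where neither was called. *Bax*, which permeabilises the outer mitochondrial membrane, fell in DKO from 119 ± 3.07 to 87.3 ± 1.55 CPM, and was at 84.7 ± 3.2 and 83.3 ± 5.54 CPM in WT (SD, n = 4). Among p53 targets 4 of 20 had a smaller response (20% against 6.33% of all genes tested) and none a larger one, and with a test against the fold of 1.2 there were 2. *Herpud1*, of the unfolded protein response, and *Sesn2*, a leucine sensor and ATF4 target, fell in both genotypes and further in DKO, *Herpud1* by log2 fold changes of -1.58 and -2.40 and *Sesn2* by -1.80 and -2.47. *Egr1*, an immediate early factor, did the same (-0.66 and -1.52).

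Genes whose fall was lost included several that went opposite ways in the genotypes. *Slco2a1* (chromosome 9, 102988712 to 103096002), the prostaglandin transporter, was at 84.6, 85.6, 88.0 and 85.5 CPM in WT with DMSO and at 48.6, 44.9, 45.6 and 46.8 CPM with torin1. In DKO it was at 1.2, 1.11, 1.46 and 1.00 CPM with DMSO and at 2.46, 1.87, 2.30 and 2.04 CPM with torin1. Neither genotype had overlapping groups and the directions were opposite, but the level in DKO stayed far below that in WT. The interaction was 1.74 (standard error 0.16, adjusted p = 6.52e-08 from edgeR). *F2rl1* (chromosome 13, 95511732 to 95525227), the receptor PAR2, fell in WT from 20.4, 15.5, 21.8 and 18 CPM to 10.3, 9.91, 14.7 and 12 CPM. In DKO it rose from 2.88, 3.67, 4.11 and 2.89 CPM to 4.70, 5.26, 7.26 and 8.75 CPM. Torin1 and DMSO libraries did not overlap in either genotype, and the interaction was 1.63 (standard error 0.27, adjusted p = 0.000219 from edgeR).

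*Sema7a* (chromosome 9, 57940112 to 57962865), a membrane-anchored semaphorin, started from like levels. It fell in WT from 11.3, 9.40, 10.8 and 9.10 CPM to 5.39, 5.02, 6.90 and 6.41 CPM and rose in DKO from 9.01, 12.8, 10.4 and 11.1 CPM to 15.8, 15.3, 16.2 and 21.3 CPM. With DMSO the genotypes overlapped, and with torin1 every DKO library lay above every WT library. The interaction was 1.44 (standard error 0.20, adjusted p = 2.77e-05 from edgeR). *Atf3*, a stress-induced bZIP factor, fell in both, by log2 fold changes of -2.01 in WT and -0.68 in DKO. *Peg10*, an imprinted gene of retrotransposon origin, fell in WT from 76.6 ± 8.47 to 37.4 ± 4.61 CPM and was at 4.59 ± 0.71 and 5.59 ± 0.72 CPM in DKO (SD, n = 4).

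Some genes of DNA replication and ribosome biogenesis were fall lost. Of 34 DNA replication genes, 6 had a larger response (17.6% against 4.68% of all genes tested) and none a smaller one. Of the 6 genes, 5 were fall lost, and with a test against the fold of 1.2 there were 3 larger responses. *Rrm2*, a subunit of ribonucleotide reductase, fell from 194 ± 7.63 to 99.6 ± 4.61 CPM in WT and from 232 ± 9.75 to 177 ± 8.98 CPM in DKO (SD, n = 4). *E2f2* and *Ccne1*, regulators of entry into S phase, fell in both genotypes, by -1.69 and -1.06 for *E2f2* and by -1.44 and -0.95 for *Ccne1*. Of the 33 ribosome biogenesis genes 3 were called, all larger (9.09% against 4.68% of all genes tested), a count that ran from 1 to 6 with 1 library left out and was 0 with a test against the fold of 1.2, and none of the 77 cytosolic ribosomal proteins was called in either direction. *Ddx21*, a nucleolar helicase, fell in WT (-0.54) with -0.19 in DKO, and its interaction was 0.34 with an adjusted p of 0.0524 from edgeR without WT torin1 replicate 2. *Vegfa*, the angiogenic growth factor, fell in WT (-0.52) and rose in DKO (0.34). *Klf4* and *Dusp5*, an early factor and an ERK phosphatase, went the same opposite ways, *Klf4* with -0.37 and 0.53 and *Dusp5* with -0.42 and 0.43.

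The rise gained pattern held the genes with larger rises in DKO than in WT. *Exosc6* (chromosome 8, 111056339 to 111057664), a ring subunit of the RNA exosome, was at 3.60, 2.35, 3.51 and 2.96 CPM in WT with DMSO and 3.95, 4, 3.89 and 4.08 CPM with torin1. In DKO it rose from 2.64, 3.12, 3.57 and 3.17 CPM to 15.2, 10.3, 15.7 and 19 CPM. The DKO torin1 libraries were above all others and the WT groups did not overlap either, although WT was not called, and the interaction was 1.91 (standard error 0.31, adjusted p = 0.000151 from edgeR). The gene lies inside *Aars* on the same strand, so the division of reads between both is uncertain. *Col8a1* (chromosome 16, 57624258 to 57754737), a short-chain collagen, was at 109, 117, 138 and 120 CPM in WT with DMSO and 113, 96.7, 128 and 123 CPM with torin1. In DKO it rose from 22.4, 17.4, 18.8 and 17.1 CPM to 40.8, 47.4, 42.1 and 59.6 CPM. The WT groups overlapped and the DKO groups did not, with all DKO libraries under all WT libraries, and the interaction was 1.40 (standard error 0.17, adjusted p = 4.50e-06 from edgeR).

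*Itgb3* (chromosome 11, 104608000 to 104670476), the integrin beta 3 chain, was at 6.27, 9.94, 6.79 and 6.44 CPM in WT with DMSO and 11.3, 9.28, 9.03 and 8.09 CPM with torin1. In DKO it rose from 1.92, 1.54, 1.54 and 1.84 CPM to 5.23, 7.02, 4.96 and 5.68 CPM. The WT groups overlapped while the DKO groups did not, and the interaction was 1.38 (standard error 0.32, adjusted p = 0.00449 from edgeR). Matched by passage, each WT torin1 library also lay above its DMSO library, but the log2 fold change of 0.36 in WT was not called. *Creb5*, *Ank3* and *Cd34*, which encode a bZIP factor, ankyrin-G and a sialomucin, had no called change in WT and a called rise in DKO from a low level. *Creb5* went from 4.24 ± 0.61 to 9.79 ± 1.11 CPM, *Ank3* from 2.4 ± 0.28 to 5.95 ± 0.98 CPM and *Cd34* from 0.36 ± 0.11 to 0.95 ± 0.39 CPM in DKO (SD, n = 4). *Cd34* was named through its level in WT, and its DKO libraries were near or under 1 CPM. In WT *Cd34* was at 373 ± 13.8 and 401 ± 14.4 CPM.

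Of 36 matrix genes 6 had a larger response (16.7% against 4.68% of all genes tested) and none a smaller one. Without the WT libraries of passage 11 the counts were 9 larger and 1 smaller, with passage as a block 11 and 2, and with a test against the fold of 1.2 there were 2 larger ones. *Tnc*, tenascin C, rose in DKO from 71.3 ± 14.9 to 150 ± 21.2 CPM and was at 233 ± 34.3 and 254 ± 41.3 CPM in WT (SD, n = 4). *Ccn2*, a secreted YAP target, had log2 fold changes of -0.22 in WT, not called, and 0.63 in DKO. *Abcc1*, an efflux pump, rose in DKO (0.80) and had 0.17 in WT, below the fold threshold. *Ptgs2* and *Tslp*, which encode an inducible cyclooxygenase and a cytokine, rose in DKO (0.56 and 0.99) with no called change in WT. *Top2a*, *Cenpe* and *Ndc80*, of 27 mitosis genes of which 3 had a larger and none a smaller response, had DKO log2 fold changes of 0.58, 0.97 and 1.09 against 0.08, 0.64 and 0.81 in WT. The 3 of 27 are 11.1% against 4.68% of all genes tested, and 1 gene was called with library size alone or with a test against the fold of 1.2. *Ndc80* lost its call without WT DMSO replicate 4 (0.25) or DKO DMSO replicate 2 (0.22), both under the fold threshold.

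Of the other members of the family, *Mitf* was rise gained. It was at 9.96, 8.76, 11.2 and 9.34 CPM in WT with DMSO and at 9.11, 6.96, 8.71 and 8.60 CPM with torin1. In DKO it was at 35.8, 27.3, 31.5 and 27.2 CPM with DMSO and 35.7, 43.1, 40.4 and 39.2 CPM with torin1. The libraries of torin1 and DMSO overlapped in both genotypes, and every DKO library lay above every WT library. Matched by passage, each DKO torin1 library lay above its DMSO library. In WT the torin1 library was above its DMSO library at passage 11 and below it at the other passages. The interaction was 0.61 (standard error 0.19, adjusted p = 0.0301 from edgeR). It was not called without WT DMSO replicate 3 (0.55, adjusted p = 0.0645), WT torin1 replicate 2 (0.53, adjusted p = 0.0757), DKO DMSO replicate 2 (0.56, adjusted p = 0.0618), DKO DMSO replicate 4 (0.56, adjusted p = 0.0666) or DKO torin1 replicate 2 (0.57, adjusted p = 0.0522), all from edgeR. *Tfe3* fell with torin1 in both genotypes (-0.58 and -0.42), a difference of 0.16 that lay under the fold threshold, and *Tfeb* fell alike (-0.57 and -0.56, interaction 0.01 with a standard error of 0.17). *Tfec* had too few counts to be tested.

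Programmes known to follow MTOR through other factors responded to torin1 in both genotypes. Over all genes tested, torin1 lowered 20.5% in WT and 20.2% in DKO. Of 43 ATF4 targets and amino acid synthesis genes, 41 fell in WT and 39 in DKO, and the interaction was smaller for 2 (4.65%) and larger for 3 (6.98%), shares near the 6.33% and 4.68% of all genes tested. Sterol and fatty acid synthesis genes fell in 26 of 33 cases in WT and 27 in DKO. They had 1 larger response (3.03% against 4.68% of all genes tested), that of *Srebf1* (0.00 in WT and 0.39 in DKO). Proteasome genes fell in 27 of 31 in WT and 22 in DKO, and oxidative phosphorylation genes in 26 and 25 of 47. Each list had 1 called interaction, a larger response (3.23% and 2.13% against 4.68% of all genes tested). Of 40 interferon-stimulated genes none was called in the interaction, but with passage as a block 11 had a smaller and 1 a larger response, and the median interaction of the list ran from -2.17 to 1.47 over the alternatives. The clock genes had 4 smaller responses of 17 (23.5% against 6.33% of all genes tested), 2 to 4 with a library left out, among them *Bhlhe41*, a repressor, which rose in WT (1.21) and fell in DKO (-0.33), and *Rora*, a nuclear receptor, which rose in both (2.42 and 1.39). In lipid droplets and fatty acid oxidation, 3 of 24 genes had a smaller and 2 a larger response. These are 12.5% and 8.33%, against 6.33% and 4.68% of all genes tested. The larger count ran from 0 to 3 with 1 library left out and was 0 with a test against the fold of 1.2. *Cpt1a*, the carnitine transferase, and *Plin4* rose more in WT (1.73 and 4.42) than in DKO (1.12 and 1.02). *Pdk4*, which inhibits pyruvate dehydrogenase, and *Angptl4*, which inhibits lipoprotein lipase, had larger responses in DKO (1.58 and 1.13) than in WT (0.59 and 0.22), calls that were lost in 7 and 4 of the 16 fits with a library left out. *Ccng2*, a FOXO target, rose in both (1.25 and 1.96), and its interaction of 0.70 was 0.62 with an adjusted p of 0.0501 from edgeR without DKO DMSO replicate 4.

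The MK-8722 libraries, which are no term of the contrast but shared its filter, scaling and estimate of the spread, gave the level of the same genes under another drug. DKO MK-8722 replicate 3 had an RNA integrity number of 7.9, against 9.7 to 9.9 in the other libraries. No fit left it out alone. With the 16 DMSO and torin1 libraries fitted alone, the patterns held 560 rise lost, 344 fall deepened, 242 fall lost and 370 rise gained genes. The difference of level between DKO and WT holds any difference already present without a drug. Of all genes tested, 25.4% were lower and 23.3% higher in DKO than in WT under MK-8722. Of the 571 rise lost genes, 254 (44.5%) were lower and 129 (22.6%) higher. For the fall deepened genes the numbers were 103 (31.9%) and 73 (22.6%) of 323, and for the fall lost genes 56 (23.7%) and 82 (34.7%) of 236. Rise gained genes were lower in 150 (37.7%) and higher in 111 (27.9%) of 398. Under DMSO, whose libraries are part of the contrast, the level in DKO was lower for 15.8% and higher for 46.2% of the rise lost genes, and for 19.5% and 33.4% of the fall deepened genes. It was lower for 29.2% and higher for 30.5% of the fall lost genes, and for 45.2% and 22.6% of the rise gained genes, against 24.6% and 23.5% of all genes tested. Since a level under DMSO enters both the sorting and this comparison, nothing is read from these shares. Among the named rise lost genes, *Dpp7* was at 66.3 ± 4.45 CPM in WT and 23 ± 2.6 CPM in DKO with MK-8722, *Neu1* at 95.2 ± 5.92 and 35.3 ± 1.71 CPM and *Atp6v0b* at 129.6 ± 4.46 and 59.2 ± 1.5 CPM (SD, n = 4). *Trnp1* was at 9.95 ± 1.42 and 8.63 ± 1.26 CPM, a difference that was not called. Other named rise lost genes were higher in DKO with MK-8722, by log2 differences of level of 2.75 for *Arrdc4*, 2.67 for *Rragb*, 2.07 for *Bhlhe41*, 1.93 for *Rora*, 0.32 for *Sqstm1* and 0.28 for *Atp6ap2*. *D6Wsu163e* overlapped between the genotypes with MK-8722, with 27.3 ± 2.18 and 21.8 ± 5.36 CPM, although the difference of -0.33 was called and the groups stood apart with torin1.

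**Figure D5:**
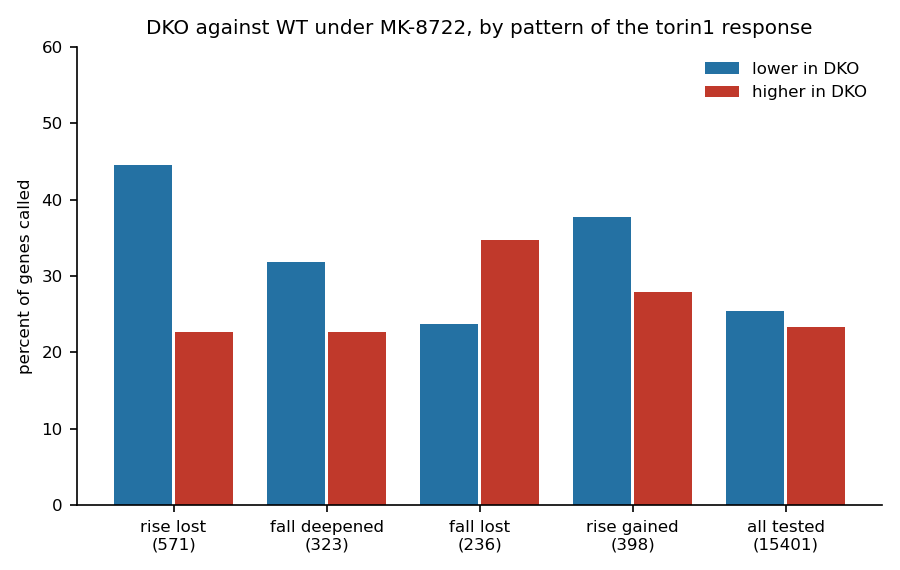
Percent of the genes of each pattern, and of all genes tested, called lower (blue) or higher (red) in *tfeb tfe3* DKO than in WT under MK-8722, with the number of genes in brackets. Rise lost genes are lower in 44.5% against 25.4% of all genes tested, and fall lost genes higher in 34.7% against 23.3%. Rise gained and fall deepened genes are lower in 37.7% and 31.9%.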

How the data were processed

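MEFs of 2 genotypes and 3 treatments were sequenced as polyadenylated RNA, 4 libraries per group, with total counts from 24668921 to 33332562. The authors used STAR and Salmon with GRCm38, considered unique molecular identifiers, and deposited estimated counts per gene and TPM per transcript, and they removed a batch effect that is not named, so none was removed here. The estimated counts were rounded, filtered with filterByExpr (minimum count of 10), scaled with TMM and fitted with 1 mean per group over all 24 libraries by edgeR's quasi-likelihood method (version 4.0.16, form of edgeR 3), which left 18 residual degrees of freedom. Calls needed an adjusted p under 0.05 and a fold of 1.2. The method was tested on simulated data. DESeq2 1.42.0 and limma 3.58.1 gave alternatives. TPM entered no test, and 0 columns were left without a sample. Gene positions come from GENCODE M21 on GRCm38, with 15386 of the 15401 identifiers matched.

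Named genes are, per pattern, the 6 largest interactions among genes averaging 2 log2 CPM or more, with no provisional symbol and no overlap between torin1 and DMSO in the genotype whose response is called, the family members, and up to 3 called members per list and direction. The members and the 28 lists were chosen with earlier results of these data known. Some genes that the rule names are not reported here. Genes at the limits of the calls, and members of lists named in addition, were chosen after their values were seen.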

Additional observations from a re-analysis of the deposited data

Results flagged for a closer look

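The response to torin1 differed between the genotypes by the test of the interaction for 975 genes with a smaller and 721 with a larger response. Of these, 42 genes rose in WT and fell in DKO and 26 fell in WT and rose in DKO, each called in both genotypes. Of 104 groups of 4 libraries over 26 named genes, 3 held a library far from the other 3, where chance gives about 1 group in 20. *Sema7a* was at 21.3 CPM in DKO torin1 replicate 4 against 15.3 to 16.2 CPM in the others. *Itgb3* was at 9.94 CPM in WT DMSO replicate 2, a library of passage 11, against 6.27 to 6.79 CPM. *Ank3* was at 2.81 CPM in DKO DMSO replicate 1 against 2.21 to 2.30 CPM. The interactions of these 3 genes were called with each of the 16 libraries left out in turn.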

How the results depend on the processing

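Of 98 named genes 96 were called, of which 58 kept their call under every alternative, 38 lost it under at least 1 and none changed direction. The uncalled interaction of *Tfeb* ran from -0.05 to 0.09. Against a fold of 1.2 (edgeR's glmTreat), 313 responses were smaller and 141 larger, with 230 rise lost, 73 fall deepened, 36 fall lost and 91 rise gained genes. With the false discovery rate alone, 1146 were larger and 571 fall lost. With library size alone, 472 were larger and 119 fall lost, beside 1306 smaller ones, and 1 named gene, *Tfe3*, gained a call with the false discovery rate alone. Without the WT libraries of passage 11, 385 genes were fall lost, beside 749 smaller and 1051 larger responses. With 1 library left out at a time, smaller responses numbered 764 to 953, larger ones 604 to 1099, rise lost genes 466 to 555, fall deepened 231 to 330, fall lost 172 to 441 and rise gained 336 to 522. The highest numbers of larger and fall lost genes came without WT torin1 replicate 3, and without WT torin1 replicate 1 there were 374 fall lost genes. The cause was not tested. Samples of equal replicate number did not deviate together (r from -0.36 to 0.26), and those of equal passage did so unevenly (0.04 to 0.64), all above 0 but not all over 0.1. Neither was taken to pair the samples in the main fit, although a pairing by passage was possible. Overlap between groups is stated across passages unless a matching by passage is named. With replicate number as a replicate block 947 responses were smaller and 715 larger. With passage as a block, complete within each genotype, they numbered 1329 and 1038, with 11 interferon-stimulated genes smaller against 0. The passage block kept 972 of the 975 smaller and all 721 larger responses of the main fit. With DESeq2's test the numbers were 908 and 903. No other count left the range of 1.5 times. The counts of list members under these alternatives were added after seeing the data: V-ATPase genes with a smaller response stayed at 15 but for glmTreat with 12, and lysosomal enzymes ranged from 28 to 34 with a library left out. Of the named genes, 23 lost the call with a library left out, *Igf2r*, *Junb* and *Ciart* most often, in 13, 14 and 12 of 16 fits, and *Fos*, *Pdk4* and *Heatr1* in 6, 7 and 7. The biological coefficient of variation of 10.7% limits calls of small interactions.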
